A study of Mus musculus with 6 samples.

Results

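Kinesins, dyneins and intraflagellar transport genes were examined in 6 olfactory sensory neurons, the cells with which the nose detects odours, each sequenced on its own. The members were chosen by gene name: kinesin heavy and light chains (Kif, Klc, Kifap3), cytoplasmic dynein subunits (Dync), dynein light chains (Dynl), axonemal dynein heavy chains (Dnah) and the Ift and Bbs genes, with names marked as pseudogenes left out. This gave 99 of 55341 genes. The naming also took 2 antisense RNA genes, Dnah2os and Kif16bos, and Kif1bp, which encodes a protein that binds kinesins and is not itself a motor. The cells came from the olfactory epithelium of C57BL/6 wild-type mice aged 6 weeks. Each neuron was frozen after a physiological recording and made into its own CEL-Seq2 library, a method that tags the 3' ends of RNA. The labels put all 6 cells, here cells 1 to 6, in 1 group and name no animal, drug or recorded response, so there is no control group and no test between conditions. Every value is given per cell, with an interval that covers counting error only.

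Kinesins and cytoplasmic dynein are motors that walk along microtubules in opposite directions. In a neuron kinesin-1 and kinesin-3 carry cargo down the axon, and dynein 1 returns it to the cell body. Inside a cilium, kinesin-2 moves trains of IFT-B and IFT-A proteins towards the tip, dynein 2 brings them back, and the BBSome links membrane proteins to the trains. An olfactory sensory neuron uses both systems, since it has an axon and also long sensory cilia that hold the odorant receptors and the transduction channels. The cilia of mammalian olfactory neurons lack the dynein arms that make other cilia beat, and the axonemal dyneins of the Dnah family form those arms.

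Library totals ran from 8613 counts in cell 1 to 122546 in cell 3, with 60902 in cell 4. Levels are given as CPM, a gene's counts divided by the cell's total and scaled to a common size. A single count thus stood for 116 CPM in cell 1 but only 8.16 CPM in the deepest library, cell 3, and a gene at 0 may have a level of up to 3 counts, or 348, 87.0, 24.5, 49.3, 133 and 256 CPM in cells 1 to 6. Markers of mature olfactory neurons were abundant in each cell, summing to between 16160 and 31000 CPM, and 6 of the 9 were seen in every cell. Transcripts known from red blood cells were highest in cell 4 (12610 CPM, 171 to 4264 CPM in the other cells), and gland transcripts were highest in cell 2 (19839 CPM, 85.3 to 6966 CPM in the other cells). Their part in the results was not tested.

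Transport genes were detected broadly. At least 1 count was found in any cell for 76 of the 99 members, and in all 6 cells for 12. Over all genes in the table, 29.8% had a count in any cell and 1.5% had one in all cells. Among protein-coding genes the shares were 49.8% and 2.89%, against 76 and 12 of the 97 protein-coding members. The members numbered 26, 55, 64, 56, 47 and 21 in cells 1 to 6. At the depth of cell 1, 31.9, 35.1, 32.2 and 33.5 members would be expected in cells 2 to 5, but 19.3 in cell 6. Over all genes cell 6 was likewise the lowest at that depth, with 2468 expected against 3441 to 4015 in cells 2 to 5. Together the members took 0.604% to 0.986% of a cell's counts.

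**Figure D1:**
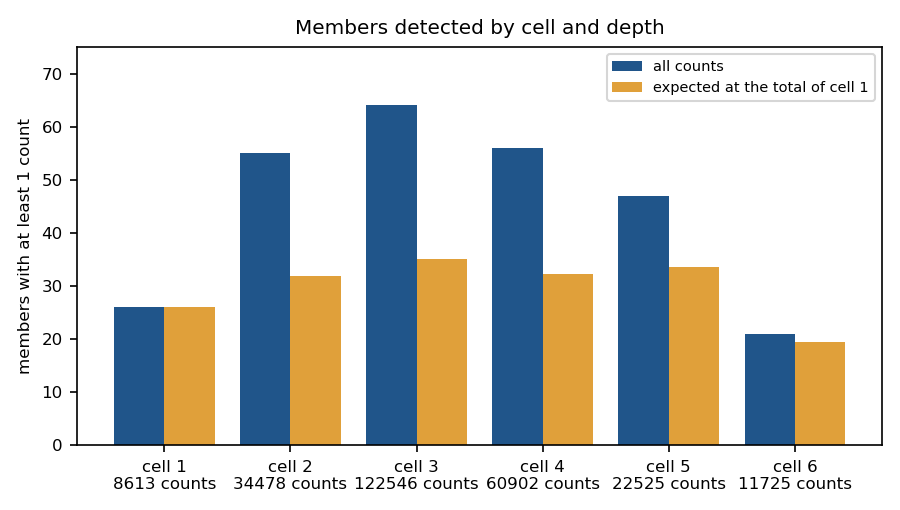
Members with at least 1 count in each cell (vertical axis, number of the 99 members), from all counts and as the number expected at the 8613 counts of cell 1. The blue bars follow library depth, from 21 in cell 6 to 64 in cell 3, while the orange bars lie between 26 and 35.1 in cells 1 to 5 and at 19.3 in cell 6.

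Motors of the axon were led by Kif1a, the kinesin-3 that carries precursors of synaptic vesicles. Kif1a had 4, 17, 86, 83, 25 and 32 counts in cells 1 to 6, or 464, 493, 702, 1363, 1110 and 2729 CPM. It was the member with the most counts (247) and was found in every cell. Cell 6 was the highest, with a 95% Poisson interval of 1867 to 3853 CPM that lay above the intervals of the other cells. Against the other 5 cells pooled (863 CPM) the level in cell 6 was 3.16 times as high (95% interval 2.11 to 4.60). That ratio was 1.58 with edgeR's TMM sizes and 1.31 with DESeq2's size factors, which scale cell 6 down, and with DESeq2's factors cell 4 rather than cell 6 was the highest. Kif1b, a second kinesin-3 whose forms carry mitochondria and vesicle precursors, was more even, with 3, 8, 34, 9, 12 and 2 counts and a range of 148 to 533 CPM. The other 4 kinesin-3 genes, Kif13a, Kif13b, Kif16b and Kif1c, had 9, 1, 9 and 5 counts over all cells.

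Kinesin-1 was found through all 3 heavy chain genes, in different proportions from cell to cell. Kif5b, the widely expressed heavy chain, had 1, 17, 40, 25, 12 and 0 counts (116, 493, 326, 410, 533 and 0 CPM). Kif5a and Kif5c, the heavy chains known as neuronal, had 0, 2, 46, 27, 5 and 6 counts and 0, 2, 10, 15, 7 and 8 counts. In cell 6 the heavy chain counts came from Kif5a and Kif5c alone, whereas in cell 2 Kif5b gave 17 of the 21. Kif5c was 5.0 times as high in cell 6 (682 CPM) as in the other 5 cells pooled (137 CPM, interval of the ratio 2.0 to 11.0), and 2.06 times with DESeq2's size factors. Kif5a was at 58.0 CPM in cell 2, against 371 CPM in the other 5 cells pooled, a ratio of 0.156 (0.0186 to 0.582). The count of 0 for Kif5b in cell 6 allows up to 256 CPM, below the 381 CPM of the other cells pooled. In cell 1, the shallowest library, kinesin-1 as a list had 2 counts where 11.1 would fall at the rate of the other cells.

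Light chains of kinesin-1, which bind its cargo, differed in opposite directions between the deepest cells. Klc2 was at 343 CPM in cell 3 (42 counts) against 82.1 CPM in cell 4 (5 counts), with 0, 3, 3 and 0 in cells 1, 2, 5 and 6. Klc1 went the other way, at 81.6 CPM in cell 3 (10 counts) against 328 CPM in cell 4 (20 counts), with 1, 12, 3 and 0 in cells 1, 2, 5 and 6. The ratios of cell 3 to cell 4 were 4.17 for Klc2 (1.65 to 13.5) and 0.248 for Klc1 (0.104 to 0.556). Klc3 had 4 counts, all in cell 4, and Klc4 had none in any cell, which allows up to 24.5 CPM in cell 3 and 49.3 CPM in cell 4.

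Cytoplasmic dynein 1 was represented by Dync1h1, its heavy chain, and Dync1i2, an intermediate chain that binds cargo adaptors. Dync1h1 had 1, 9, 35, 20, 1 and 5 counts, or 116, 261, 286, 328, 44.4 and 426 CPM, and was low in cell 5 with a ratio of 0.151 to the other cells pooled (0.00377 to 0.870). Dync1i2 had 2, 6, 33, 31, 3 and 11 counts, with 938 CPM in cell 6 and 133 to 509 CPM in the other cells. The gene of the second intermediate chain, Dync1i1, had no count in any cell. The light intermediate chain genes Dync1li1 and Dync1li2 had 19 and 37 counts in all, with 35 of the 37 Dync1li2 counts in cells 3 and 4. Of the 12 genes of dynactin and other dynein regulators, 11 were found and 2 were found in all cells, with a summed median of 1643 CPM. Actr1b, an actin-related protein that builds the dynactin filament, and Pafah1b1, the dynein regulator known as Lis1, led with medians of 374 and 350 CPM.

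By library totals dynein light chains had the highest median (2498 CPM) of the 13 role lists. By totals they also had the smallest ratio of highest to lowest cell. Their sum was 2554, 2523, 2432, 2085, 3241 and 2473 CPM in cells 1 to 6. TMM sizes and DESeq2's size factors raise cell 3 and lower cells 1 and 6, so the sums are less even with them. All 9 genes had counts, and 6 of them in every cell. Dynll2, one of the LC8 light chains that also serve myosin, had 3, 19, 71, 22, 15 and 6 counts, or 348, 551, 579, 361, 666 and 512 CPM. The intervals of the 6 cells overlapped for this gene. Dynll1, the second LC8 gene, had 3, 9, 25, 19, 6 and 0 counts, between 204 and 348 CPM in cells 1 to 5.

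Dynlt1a, Dynlt1b, Dynlt1c and Dynlt1f, genes of a Tctex-type light chain, had 105, 55, 79 and 74 counts and were each found in all 6 cells. These copies lie on chromosome 17 of GRCm38, between 6306340 and 6655900, and share sequence. Cut into stretches of 50 bases, the last 1000 bases of their transcripts were found in another gene for 50.3%, 83.2%, 76.6% and 81.4% of the stretches, so their counts are uncertain one by one. Summed, they gave 1002 to 1731 CPM. Dynlt1a also overlaps the exons of Tmem181a on the opposite strand by 580 bases, and without a stated strand setting the reads cannot be told apart. Dynlt3, a related light chain, had 1, 4, 18, 18, 7 and 7 counts and was at 597 CPM in cell 6, against 193 CPM in the other cells pooled (ratio 3.10, 1.18 to 6.89). With TMM sizes that ratio was 1.54 (0.590 to 3.43) and with DESeq2's size factors 1.28 (0.488 to 2.84).

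Counts at the 3' end do not grow with transcript length, so levels of different genes were compared as CPM, and per kilobase of exon as an alternative. By median CPM the leading members were Kif1a (906), Dynll2 (531), Dynlt1a (394), Kif5b (368) and Dynlt1c (319). Per kilobase, Dynlt1b, Dynll2, Dynlrb2, Dynlrb1 and Kif1a led with medians of 336, 194, 158, 145 and 97.1 CPM. Kif1a and Dynll2 stand among the leading 5 members on both scales.

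**Figure D2:**
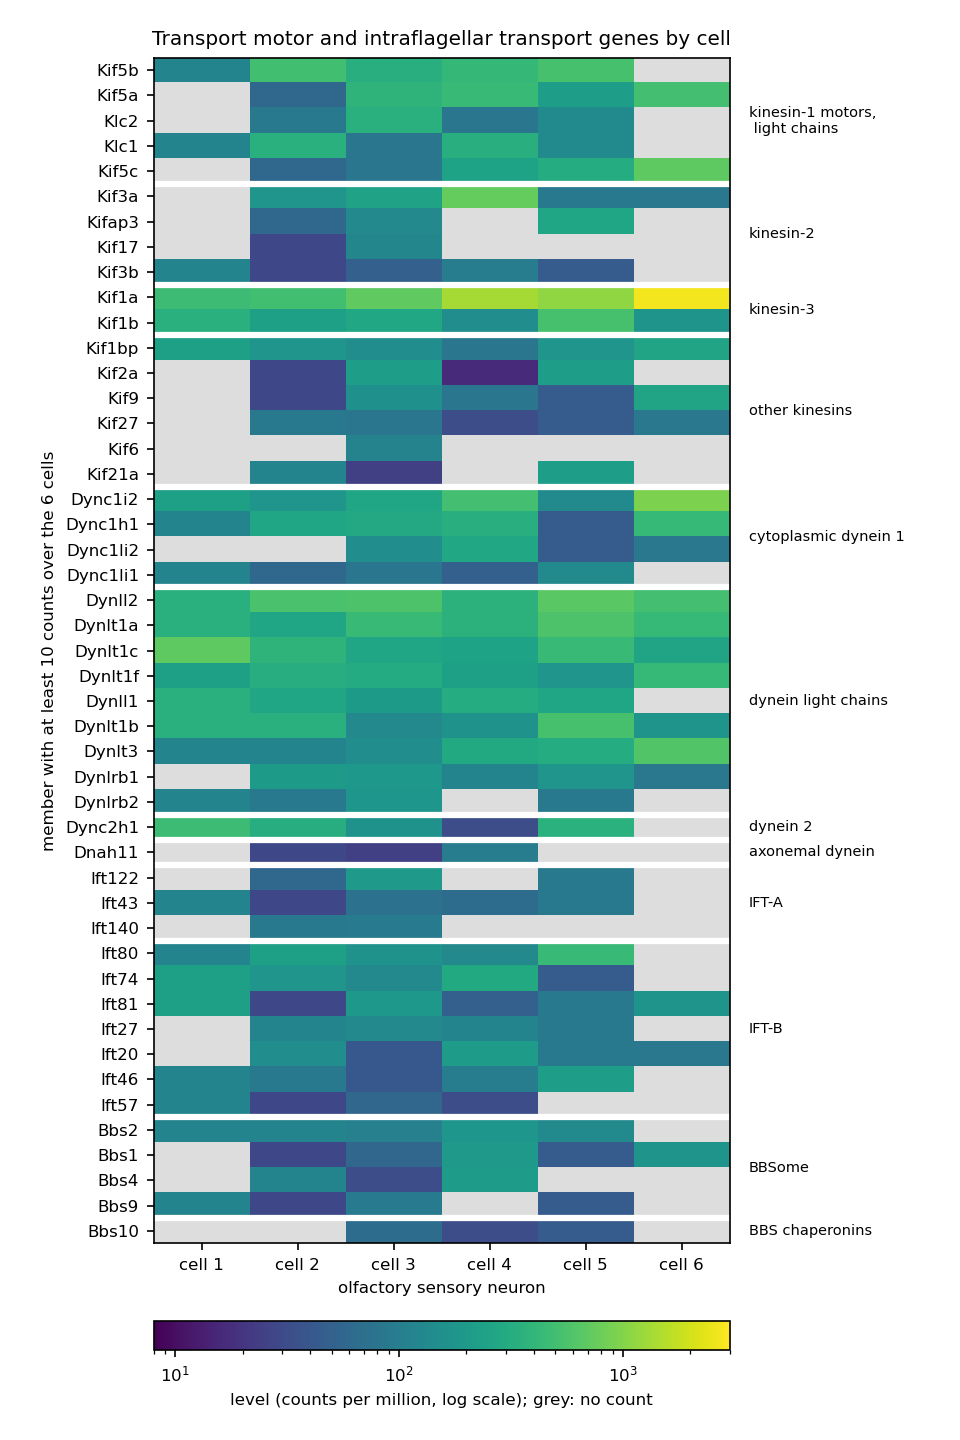
Level of each member with at least 10 counts over the 6 cells (rows, grouped by role) in each cell (columns), in CPM on a log colour scale, with grey for no count. Dynein light chains and Kif1a are coloured in nearly every cell, cell 6 is grey for most Ift and Bbs genes, and cell 4 is grey for genes seen in cell 3, among them Ift122, Ift140, Kif17, Kifap3, Kif6, Dynlrb2 and Bbs9.

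Intraflagellar transport genes were low, and nearly all had a count in at least 1 cell. All 14 Ift members were found in some cell, with a median sum of 1101 CPM. Of 8 Bbs members 7 were found, Bbs12 being at 0. Among protein-coding genes 49.8% had a count in any cell. The Ift members found numbered 6, 13, 11, 10, 12 and 2 in cells 1 to 6. Of the 14, 1 was found in all 6 cells, and 11 had at least 3 counts in some cell. The IFT-B genes, whose proteins form the part of the train that kinesin-2 pulls, were led by Ift80, Ift74 and Ift81. Ift80 had 1, 8, 20, 8, 10 and 0 counts, or 116, 232, 163, 131, 444 and 0 CPM, with cell 5 the highest. Ift74 had 2, 6, 16, 18, 1 and 0 counts, from 44.4 to 296 CPM where it was found. Ift81, whose protein pairs with that of Ift74 to bind tubulin, had 2, 1, 23, 3, 2 and 2 counts, found in every cell and lowest in cell 2 at 29.0 CPM. Ift52 and Ift88, core members of the same complex, had 2 and 5 counts in all.

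Genes of the same complexes under other names were also low. Of 10 further IFT genes 8 were found, with a median sum of 234 CPM, and of 5 further BBS genes 5 were found, with 295 CPM. Arl6, the small GTPase that recruits the BBSome to membranes, had 1, 3, 24, 5, 6 and 0 counts. Bbip1, a small BBSome subunit, had 1, 6, 4, 5, 1 and 2 counts. Wdr35, an IFT-A gene, had 1, 1, 18, 1, 2 and 0 counts, and Traf3ip1, an IFT-B gene, had 0, 1, 5, 4, 3 and 0.

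Cell 6 had few transcripts of the Ift and Bbs members. The 22 Ift and Bbs members together had 5 counts in cell 6, where 18.7 would fall at the rate of the other cells. The levels were 426 CPM in cell 6 and 1594 CPM in the other 5 cells pooled, a ratio of 0.268 (0.0864 to 0.630). It was 0.133 with TMM sizes and 0.110 with DESeq2's size factors, so the direction was the same under each scaling. In the other cells the sum lay between 1161 and 1776 CPM. By totals, subunits of the same complexes under other names were nearer to the rate of the other cells. The further IFT genes had 2 counts in cell 6 where 2.92 would fall, a ratio of 0.685 (0.0812 to 2.58). The further BBS genes had 3 counts where 3.67 would fall, a ratio of 0.817 (0.165 to 2.48). Both intervals also include the ratio of the Ift and Bbs members. A share taken within a cell does not depend on scaling: Ift and Bbs genes gave 5 of the 53 counts that they and the kinesin-1 and kinesin-3 genes held together in cell 6 (9.43%, 95% Clopper-Pearson interval 3.13% to 20.7%). The shares in cells 1 to 5 were 52.6%, 45.1%, 40.0%, 35.3% and 37.4%, with lower bounds from 28.2% to 35.8%. Against dynein 1 and the light chains in place of the kinesins, cell 6 had 9.80% (3.26% to 21.4%) and the other cells 27.8% to 34.9%. Without Kif1a the share in cell 6 was 23.8% (8.22% to 47.2%) against 48.8% to 66.7%, and the intervals then overlapped those of cells 1 to 5. These shares were chosen after the values were seen. In cell 6 a count of 0 allows up to 256 CPM, so low levels of single Ift genes were not detectable there. Of the 9 mature neuron markers 6 were found in cell 6, and they summed to 25928 CPM. The transduction genes Cnga2 and Cnga4 and the receptor transport gene Rtp1 were at 0 and Adcy3 had 1 count. Gnal and Gng13, also of transduction, were at 1535 and 1962 CPM, within the range of the other cells, and Gfy was at 9638 CPM, against 2146 to 6243 CPM in the other cells. Immature markers summed to 2132 CPM there, within their range of 581 to 2791 CPM over the other cells, but the genes differed. By library totals Gap43 was highest in cell 6, at 682 CPM against 0 to 222 CPM in the other cells. Stmn1 was too, at 853 CPM against 0 to 558 CPM. Stmn2 was at 597 CPM, within its range of 464 to 1708 CPM, and Marcksl1 and Gng8 were at 0. The part of these markers in the result was not tested.

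**Figure D3:**
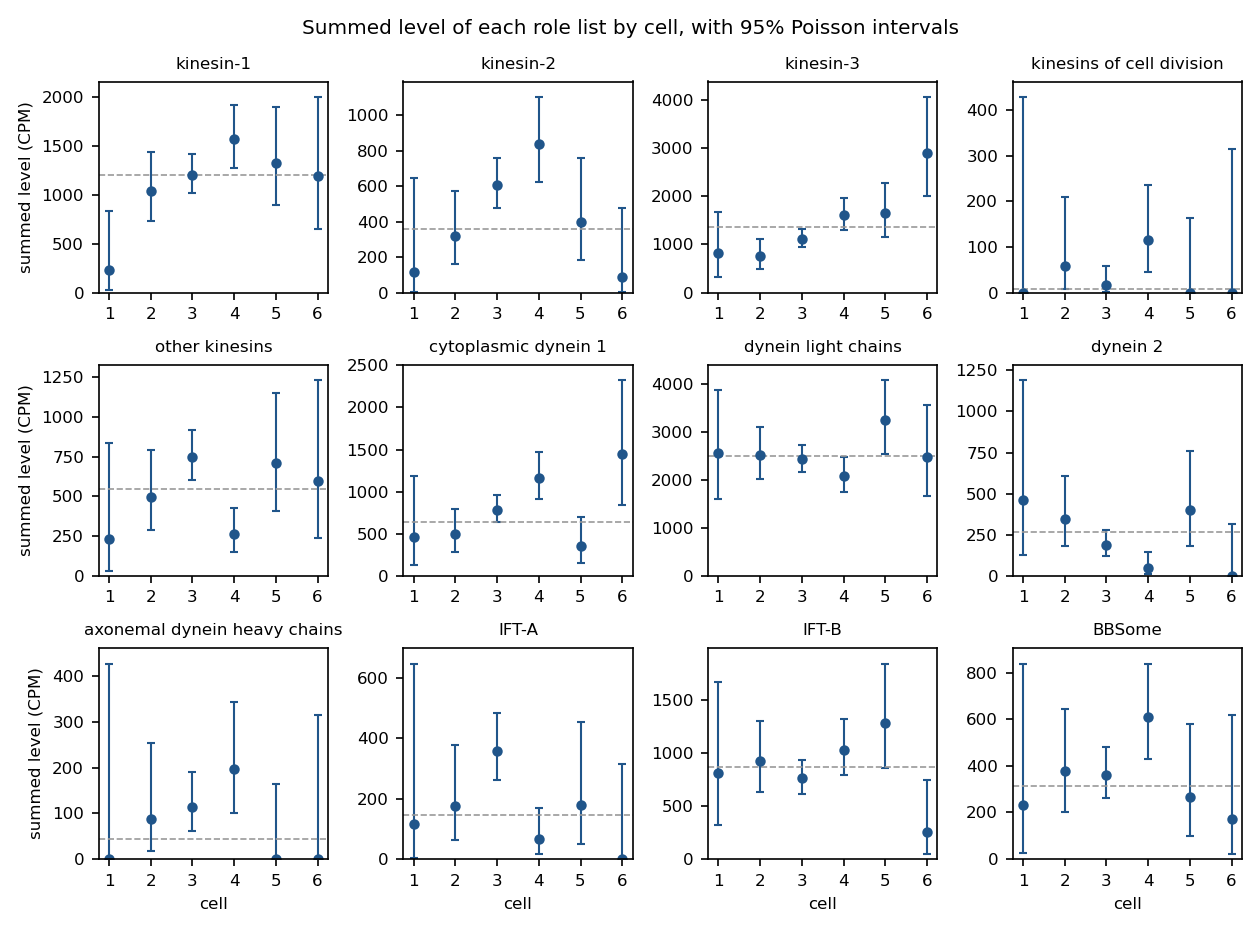
Summed level of 12 role lists (vertical axes, CPM from 0, each with its own range) in cells 1 to 6, as points with 95% Poisson intervals and the median over cells as a dashed line. Dynein light chains lie between 2085 and 3241 CPM in all 6 cells, IFT-B is lowest in cell 6 at 256 CPM, and IFT-A is highest in cell 3 at 359 CPM.

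Cells 3 and 4 are the deepest libraries and allow the finest comparison. Of the 30 members with at least 20 counts over both cells, 3 were at least 4-fold higher in cell 3 (Kif2a, Dync2h1 and Klc2), beside 11.5% of all 2066 genes with that many counts. A single member, Klc1, was at least 4-fold lower, beside 4.65% of all genes. Both shares are near those of all genes. The median log2 ratio of the 30 members was 0.13, against 0.04 for all genes, and scaling by TMM or by DESeq2's size factors adds 0.23 or 0.45 to each log2 ratio. With TMM sizes 6 members were 4-fold higher, beside 15% of all genes, and with DESeq2's size factors 6, beside 18.1%. None was 4-fold lower, beside 3.73% and 2.76%, Klc1 being at 0.291 with TMM sizes. The comparison has 1 cell on each side, so it describes these libraries and not a condition.

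Kif2a, which encodes a kinesin that takes microtubules apart, differed most, with 220 CPM in cell 3 (27 counts) against 16.4 CPM in cell 4 (1 count). The ratio was 13.4 (2.21 to 549). Its exons overlap those of Dimt1 on the opposite strand by 1229 bases, and Dimt1 had 5 counts in all. Dync2h1, the heavy chain of the motor that returns trains from the ciliary tip, was at 163 CPM in cell 3 (20 counts) against 32.8 CPM in cell 4 (2 counts), a ratio of 4.97 (1.21 to 43.9). Its counts in cells 1, 2, 5 and 6 were 4, 11, 8 and 0, so cell 4 lay below each cell in which the gene was found. Against the other 5 cells pooled (215 CPM) the ratio of cell 4 was 0.153 (0.0179 to 0.586).

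**Figure D4:**
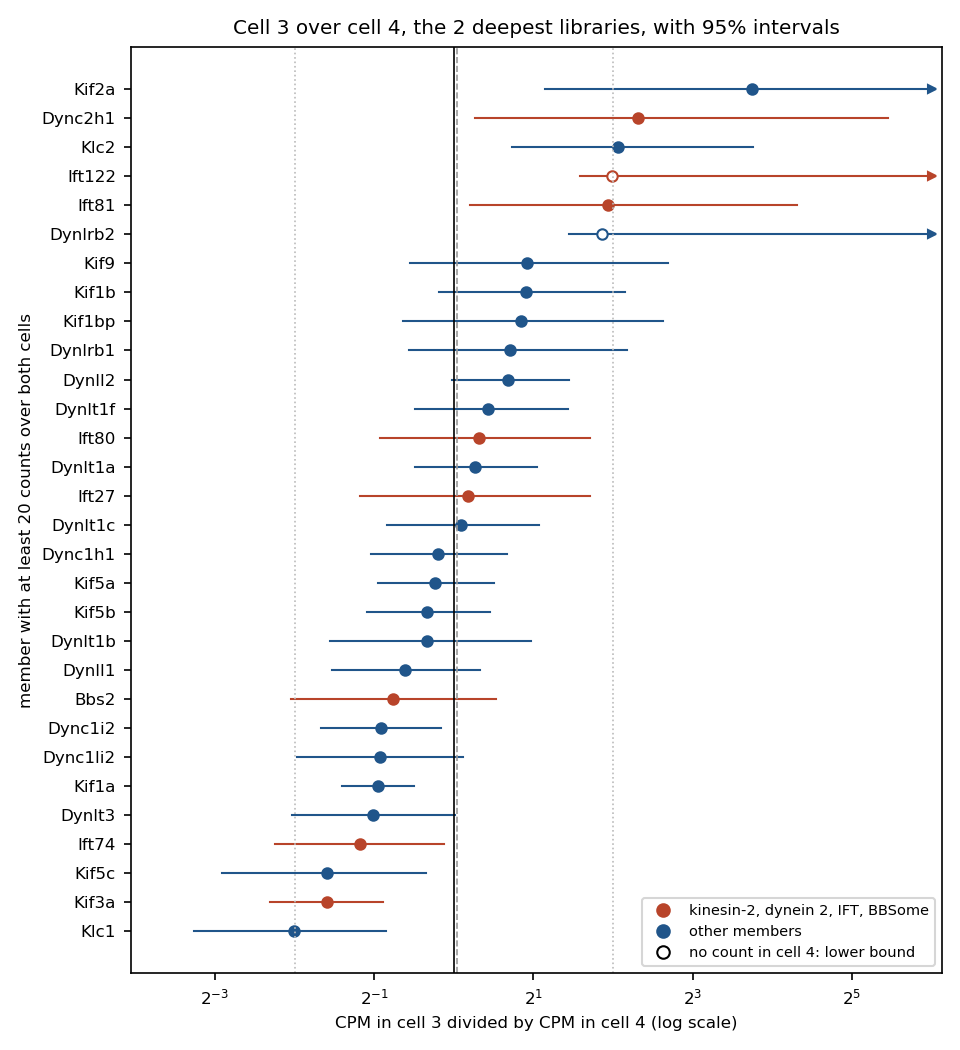
Ratio of the level in cell 3 to that in cell 4 (horizontal axis, log scale) for the 30 members with at least 20 counts over both cells, as points with exact 95% intervals, open where cell 4 had no count and the ratio is a lower bound, with arrows where an interval runs past the axis. Red marks kinesin-2, dynein 2, IFT and BBSome genes. The dashed line is the median of all genes, the dotted lines mark 4-fold. Kif2a is highest at 13.4 and Klc1 lowest at 0.248.

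Some members had counts in cell 3 and none in cell 4. With a minimum of 10 counts in cell 3, a rule chosen after the values were seen, these were 7 of 37 members: Ift122, Dynlrb2, Kifap3, Kif17, Kif6, Ift140 and Bbs9. They had 24, 22, 16, 15, 14, 11 and 11 counts in cell 3, and at the same rate 11.9, 10.9, 7.95, 7.45, 6.96, 5.47 and 5.47 counts would fall in cell 4. Of all 2953 genes with at least 10 counts in cell 3, 13.0% had none in cell 4, so the members' share is read as near the background. In the reverse direction, 0 of 31 members with at least 5 counts in cell 4 were at 0 in cell 3, beside 8.47% of all 3400 such genes.

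The IFT-A genes Ift122 and Ift140 belong to the part of the train used for the return journey and for the entry of membrane receptors. Ift122 (chr6:115853470-115926699 on GRCm38, plus strand) had 0, 2, 24, 0, 2 and 0 counts, so that 24 of its 28 counts were in cell 3. Cell 3 stood at 196 CPM, at least 3.98-fold higher than cell 4 with 3 counts as the limit of detection, and the exact interval of the ratio begins at 2.99. Ift140 had 0, 3, 11, 0, 0 and 0 counts, and Ift43, the smallest subunit, 1, 1, 9, 4, 2 and 0. As a list IFT-A was at 359 CPM in cell 3 (44 counts) against 65.7 CPM in cell 4 (4 counts), a ratio of 5.47 (1.99 to 20.9). The wider complex was mixed, since Wdr35 had 18 counts in cell 3 and 1 in cell 4, while Wdr19 had 0 in cell 3 and 8 in cell 4. Further dynein 2 genes were at 0 in cell 4, where a 0 allows up to 49.3 CPM. Wdr34 stood above that limit in cell 3, at 73.4 CPM (9 counts), though its interval of 33.6 to 139 CPM includes the limit. Tctex1d2 (5 counts, 40.8 CPM) and Wdr60 (3 counts, 24.5 CPM) lay below the limit in cell 3, so neither gives a direction alone. Summed, these genes were at least 2.82-fold higher in cell 3 with 3 counts as the limit of detection, and the exact interval begins at 2.05.

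Kinesin-2 genes differed in both directions between these cells. Kif3a, a motor subunit of the trimer that pulls the trains, was at 245 CPM in cell 3 (30 counts) against 739 CPM in cell 4 (45 counts), a ratio of 0.331 (0.202 to 0.538). Its counts in cells 1, 2, 5 and 6 were 0, 6, 2 and 1. Cell 4 thus held 45 of the 84 Kif3a counts and was the highest of the 6 cells, 3.79 times the others pooled (2.41 to 5.97). Kif3b, the other motor subunit of the trimer, was at 49.0 CPM in cell 3 (6 counts) against 98.5 CPM in cell 4 (6 counts), a ratio of 0.497 (0.133 to 1.86) that includes the ratio of Kif3a. Kifap3, the subunit that binds cargo, had 16 counts in cell 3 and none in cell 4. Kif17, a kinesin-2 that works as a pair and is known in other cells to help bring channels into cilia, had 15 counts in cell 3, 1 in cell 2 and none elsewhere. Kif3c, a further kinesin-2 of neurons, had 7 in cell 3 and 1 in cell 2.

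IFT-B and the BBSome did not follow IFT-A. The IFT-B sum was 767 CPM in cell 3 against 1034 CPM in cell 4, a ratio of 0.742 (0.533 to 1.04) that reached 1.01 with DESeq2's size factors. Ift20, an IFT-B subunit that also sits at the Golgi, was at 40.8 CPM in cell 3 (5 counts) against 213 CPM in cell 4 (13 counts). Ift74 was at 131 CPM in cell 3 (16 counts) against 296 CPM in cell 4 (18 counts). Ift81 was higher in cell 3, with 23 counts (188 CPM) against 3 (49.3 CPM). The BBSome sum was 359 CPM in cell 3 (44 counts) against 608 CPM in cell 4 (37 counts). By totals its ratio was 0.591 (0.373 to 0.941), and TMM sizes and DESeq2's size factors raise it, like every ratio of these cells. Within the BBSome, whose loss in mice is known to impair the sense of smell, Bbs4 was at 32.6 CPM in cell 3 (4 counts) against 213 CPM in cell 4 (13 counts). In cells 3 and 4, Bbs1 had 7 and 12, Bbs2 13 and 11, Bbs5 7 and 1, and Bbs9 11 and 0. Bbs4 in cell 4 was 5.33 times the other 5 cells pooled (2.05 to 14.8), where it was found in cells 2 and 3.

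Each cell was also set against the other 5 pooled, over 35 members with at least 20 counts in all. No member was 4-fold higher or lower in cell 1, beside 2.14% and 0.517% of all 2901 such genes. A lower call was out of reach at this depth for the 14 members at 0 there, whose limit of 3 counts lies above the level of the other cells. In cell 2 none was higher, beside 1.07%, and Ift81, Kif2a, Kif5a and Kif9 were lower, beside 8.0%. Of these the interval of Kif5a alone stayed below 1, since the others rest on 1 count. In cell 3, Klc2, Ift122, Kif2a and Dynlrb2 were higher by 4.31, 6.77, 4.35 and 4.14 times, beside 7.1% of all genes, and none was lower, beside 4.72%. In cell 4, Bbs4 was higher, beside 4.21%, and Dync2h1 and Kif2a were lower, beside 7.93%. In cell 5 none was higher, beside 1.86%, and Dync1h1 was lower, beside 2.86%. In cell 6, Kif5c was higher, beside 5.55%, and none was lower, beside 1.31%. Of the 35 members 15 were at 0 in cell 6, and for none of them could the limit of 3 counts reach a 4-fold lower call. The members' counts are small, between 0 and 4 of 35, so these shares are coarse. Scaling by TMM or DESeq2 sizes shifts every log2 ratio of a cell to the others, by -0.91 or -1.32 in cell 1, 0.44 or 0.83 in cell 3, -0.30 or -0.64 in cell 5 and -1.0 or -1.28 in cell 6, and over the 6 comparisons the lower calls then number 12 or 19 in place of 7. The share of all genes called lower moves alike, being 5.54% with TMM sizes and 7.64% with DESeq2 sizes, against 4.22% with totals.

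Markers of neuronal stage and of motile ciliated cells also differed between cells 3 and 4. The mature marker list summed to 30895 CPM in cell 3 against 17224 CPM in cell 4, but its genes differed unevenly. The largest differences were in Adcy3, at 152 and 5 counts, and Cnga4, at 69 and 2. Gnal was at 1689 and 1494 CPM and Rtp1 at 563 and 410 CPM. Gng13 alone went the other way, at 1795 CPM in cell 3 and 1970 CPM in cell 4. Immature neuron markers summed to 963 CPM in cell 3 against 2791 CPM in cell 4, with 4 of 5 genes found over the 6 cells and Gng8 at 0. Motile ciliated cell markers, 7 of 10 found, summed to 416 CPM in cell 3 against 148 CPM in cell 4. The ratio was 2.82 (1.37 to 6.51). Tekt1 gave 27 of the 51 counts in cell 3 and 4 of the 9 in cell 4, and Foxj1 had 5 and 0. Ccdc153 went the other way, with 3 counts in each cell, or 24.5 and 49.3 CPM. Sntn, Ccdc113 and Tmem212 were at 0. Kif1a was at 702 CPM in cell 3 against 1363 CPM in cell 4, a ratio of 0.515 (0.376 to 0.705). The part of these markers in the result was not tested.

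Promoter sequence was compared because the factors of the RFX family, which bind the X-box motif, are known to switch on ciliary genes. Promoters from RefSeq on GRCm38.p6, 250 bases before to 50 after the transcript start, matched 80 of the 99 members. The short arm of the X-box, GTTGCC on either strand, was in 35.0% of these members, 28 in number, against 14.1% of the 27025 genes with a promoter and 14.0% of protein-coding genes. Among the Ift and Bbs members 8 of 19 had it (42.1%), and among the other members 20 of 61 (32.8%). A full X-box, here GTTNCC and GGNAAC with 2 bases between them on either strand, holds that arm where its N is G. It was in 1 member, Bbs7, and in 0.529% of all genes. A looser form, GTTNCC and NGNAAC with 0 to 3 bases between them, was chosen after the promoters were seen and includes the full X-box. It was in 6 members (7.5%) and in 2.14% of all genes. The 6 are Kif17, Dynlrb2, Ift57, Bbs7, Dnah9 and Kif18b, a kinesin of cell division. In cells 3 and 4 Kif17 had 15 and 0 counts, Dynlrb2 22 and 0, and Ift57 7 and 2. Bbs7 had 2 and 0, Dnah9 1 and 1, and Kif18b none. Whether the motif goes with these counts was not tested. Kif17 and Dynlrb2 are shown with Ift57 and Bbs7, whose promoters hold like letters. Kif3a, which was highest in cell 4 and has the short arm only, is also shown. Each is written 5' to 3' on the gene's strand, with the matching letters in capitals.
Kif17: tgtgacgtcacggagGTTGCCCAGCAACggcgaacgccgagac
Dynlrb2: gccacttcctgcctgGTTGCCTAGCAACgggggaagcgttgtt
Ift57: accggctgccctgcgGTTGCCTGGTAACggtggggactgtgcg
Bbs7: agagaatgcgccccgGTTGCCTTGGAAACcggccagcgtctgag
Kif3a: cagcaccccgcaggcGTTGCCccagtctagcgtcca

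The matches begin 73, 51, 60, 121 and 98 bases before the RefSeq start of Kif17, Dynlrb2, Ift57, Bbs7 and Kif3a. The windows lie at chr4:138262163-138262205 (plus strand), chr8:116504949-116504991 (plus), chr16:49699219-49699261 (plus), chr3:36613482-36613525 (minus) and chr11:53567256-53567291 (plus). In cells 3 and 4 Kif3a had 30 and 45 counts, and whether the short arm goes with the counts was not tested. The match is a description of letters, and no binding was measured. The RefSeq start of Kif17 lies inside the gene as GENCODE draws it.

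The other members are spread over many roles. Kif1bp had 2, 6, 18, 5, 4 and 3 counts, between 82.1 and 256 CPM, and was the only one of the 15 further kinesin genes found in all cells. Kif21a, a kinesin that slows microtubule growth in axons, had 0, 4, 3, 0, 5 and 0 counts, and Kif21b had 1. Kif26b and Kif28 had 2 counts each and Kif2b had 1. Kif12, Kif19a, Kif24 and Kif26a had none, like Kif7. Among the IFT-B genes, Ift27, a small GTPase that helps the BBSome leave the cilium, had 0, 4, 16, 7, 2 and 0 counts. Ift46 had 1, 3, 5, 6, 5 and 0, Ift57 had 1, 1, 7, 2, 0 and 0, and Ift22 and Ift172 had 5 and 7 in all. Ift172 was found in cells 4 and 5 alone, with 4 and 3 counts. Bbs10, a chaperonin that helps the BBSome assemble, had 0, 0, 8, 2, 1 and 0 counts, and Bbs7 had 0, 3, 2, 0, 1 and 0. Dync2li1, the light intermediate chain of dynein 2, had 0, 1, 3, 1, 1 and 0. The roadblock light chain Dynlrb1 had 0, 7, 23, 7, 4 and 1 counts, between 85.3 and 203 CPM where found.

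Genes of beating cilia and of cell division were close to the limit of detection. Of 15 axonemal dynein heavy chains 8 were found, while 49.8% of protein-coding genes had a count in any cell. They had 29 counts in all and none in cells 1, 5 and 6. At the rate of the other cells only 0.990, 2.74 and 1.37 counts would fall in those cells. As a list they were at 114 CPM in cell 3 (14 counts) against 197 CPM in cell 4 (12 counts). The ratio was 0.580 (0.249 to 1.37). Dnah11 had 0, 1, 3, 6, 0 and 0 counts, and Dnah2 and Dnah9 had 6 and 3 in all. Dnah1 had 3, all in cell 4. Dnah7a, Dnah7b and Dnah7c share sequence and had 4, 1 and 1. Genes at 0 in every cell were Dnah3, Dnah5, Dnah6, Dnah8, Dnah10, Dnah12 and Dnah14. A count of 0 allows up to 24.5 CPM in cell 3 and 348 CPM in cell 1.

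Some other genes of beating cilia had counts in cell 3. Dynlrb2, a light chain found mainly in ciliated tissues, had 1, 3, 22, 0, 2 and 0 counts. Kif9, a kinesin of the beating axoneme, had 0, 1, 19, 5, 1 and 3 counts, and Kif6, its relative, had 14, all in cell 3. Kif27, a relative of the Hedgehog-pathway kinesin Kif7, had 0, 3, 10, 2, 1 and 1, while Kif7 had none. Of 10 markers of motile ciliated cells 7 were found, with sums of 232, 290, 416, 148, 311 and 85.3 CPM in cells 1 to 6. Tekt1 gave 27 of the 51 counts in cell 3, and Sntn, Ccdc113 and Tmem212 were at 0 in every cell. Of 8 further genes for axonemal dynein subunits and their assembly 6 were found. Dnal4 and Dnal1, dynein light chain genes, had the highest medians (22.2 and 14.5 CPM), with 12 and 9 counts in all. Dnaic2, an intermediate chain of the dynein arm, had the most counts, 17 in cell 3 and 5 in cell 4.

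Kinesins of cell division were found as 11 counts over all cells, with 5 of 11 genes found, beside 49.8% of protein-coding genes. Kif22 and Kif23, motors of chromosomes and of the dividing cell's midzone, had 4 counts each, and Kif11, which separates spindle poles, had 1. Kif2c, Kif4, Kif14, Kif18b, Kif20a and Kif20b had none. Of 8 markers of dividing progenitors 3 were found, with 8 counts in all. Kinesins of the minus-end type were represented by a single count of Kifc2. The antisense RNA genes Dnah2os and Kif16bos had none.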

How the data were processed

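The authors deposited 1 table of unscaled counts, with gene symbols in rows and the 6 cells in columns, and the counts were used unchanged. Per the labels, only read 2 was aligned, with the barcode and molecular identifier moved to the read name. Tools named in the submitters' processing notes are Bowtie2 2.3.4, CASAVA and HTSeq, with the genome build mm10. Not given in the sources used here are the annotation, the strand setting and any collapsing of reads from 1 molecule, so intervals cover counting error only and are too narrow if counts are reads.

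CPM were computed over all genes. Intervals are 95% and exact: Poisson for levels, Clopper-Pearson for shares, conditional binomial for ratios. A 0 was set to 3 counts for bounds. Each library is 1 cell, so no p-value is given. Calls needed a 4-fold ratio and at least 20 counts, and the calculation was tested on simulated data. The expected number at equal depth is exact under thinning without replacement. Exons, gene positions and types came from GENCODE M21 (GRCm38), promoters from RefSeq.

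Members, lists and alternatives were chosen with earlier results of these data known. Named genes were, per role list, the 3 with the highest median CPM, the 10 with the most counts, and every member past 4-fold. Of the further pathway lists, the 2 highest were to be named, and of a list with at most 5 genes at 0 those genes. Other named genes, among them those at 0 in cell 4 and the further dynein 2 genes, were chosen after their values were seen. Kif19b, also listed, was not used here. Tools were Python 3.11.15, scipy 1.17.1, R 4.3.3, edgeR 4.0.16 and DESeq2 1.42.0, the last 2 for size factors only.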

Additional observations from a re-analysis of the deposited data

Results flagged for a closer look

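For 6 of the 61 sets of values examined, 1 cell stood apart from the other 5 beyond Dixon's 95% limit for 6 values (0.625), which chance passes in about 1 of 20 sets of normal values. Sparse counts are not normal, and a gene with counts in 1 cell alone, such as Kif22 or Kif11, passes by construction. Kif3a stood at 739 CPM in cell 4, the next cell being at 245 CPM. The other flags rest on few counts. Kif13a was at 65.3 CPM in cell 3 (8 counts). Dnah11 was at 98.5 CPM (6 counts) and Kif22 at 65.7 CPM (4 counts) in cell 4. Kif23 was at 58.0 CPM in cell 2 (2 counts), and Kif11 at 8.16 CPM in cell 3 (1 count).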

How the results depend on the processing

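Of 600 alternatives, 39 moved a value. The 406 on single genes concern mostly medians over the 6 cells, which moved by less than the SD between cells. Ratios of 1 cell to the others moved more: Kif1a in cell 6 was at 1.58 and 1.31 times with TMM and DESeq2 sizes, outside its interval by totals. Detection depends on the minimum. With at least 10 counts, 40 members were detected in any cell, 0 in all cells, and 0, 8, 37, 21, 8 and 2 in cells 1 to 6. With at least 3 counts, 4 members were detected in all cells, 8 in cell 1, 30 in cell 2, 26 in cell 5 and 12 in cell 6. At the depth of cell 1 the expected numbers were 31.9 in cell 2, 35.1 in cell 3 and 32.2 in cell 4. The number detected in all cells ran from 12 to 23 with 1 cell left out, 23 without cell 6. The median of the dynein light chains was 2924 CPM with TMM sizes and 2888 CPM with DESeq2's size factors.

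Between cell 3 and cell 4, 6 members were higher at 2-fold, 1 at 8-fold, and 6 with TMM sizes and 6 with DESeq2's size factors, beside 25.8%, 4.02%, 15% and 18.1% of all genes. There were 5 lower at 2-fold, 0 at 8-fold, 4 with no filter on counts, and 0 with either other scaling, beside 19.6%, 1.31%, 8.74%, 3.73% and 2.76%. Over all cells against the other 5, the higher calls numbered 6 as reported, 31 at 2-fold, 0 at 8-fold and 28 with no filter, beside 3.65%, 15.3%, 0.873% and 6.53% of all genes. The lower calls numbered 7 as reported, 35 at 2-fold, 1 at 8-fold, 12 with TMM sizes and 19 with DESeq2's size factors, beside 4.22%, 16.5%, 1.07%, 5.54% and 7.64%. Leaving out 1 cell gave 1 to 6 higher calls, 1 without cell 3, and 5 to 10 lower calls. With at least 20 counts required in cell 3, 2 members were at 0 in cell 4. For this number and for the calls with 1 cell left out, the share of all genes was not computed. The kinesin-3 sum in cell 6 was 2.37, 1.18 and 0.978 times the others by total, TMM and DESeq2 scaling. These causes were not tested. No paired analysis was possible because all cells are of 1 group. Leaving out cell 3 or cell 4 leaves no comparison of the pair.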

Other observations

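Dynactin, the complex that lets dynein 1 take up cargo, was broadly detected. By library totals the 12 genes of dynactin and its regulators summed to 2729 CPM in cell 6 and to between 1277 and 2250 CPM in the other cells, a ratio to the others pooled of 1.57 (1.06 to 2.24). The direction flips with scaling, to 0.781 with TMM sizes and 0.647 with DESeq2's size factors. Likewise the cytoplasmic dynein 1 sum in cell 6 was 1.84 times the others by totals and 0.919 and 0.761 times with these sizes. Dctn1, the largest dynactin subunit, had 0, 7, 34, 27, 3 and 8 counts in cells 1 to 6. Actr10, which caps the dynactin filament, had 0, 7, 14, 7, 3 and 8 counts. Nde1, a partner of Lis1, was at 0 in each cell, while its relative Ndel1 had 3, 4, 11, 21, 4 and 0 counts.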
